A study of Homo sapiens with 6 samples.

Results

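Cadherins and protocadherins were examined in Meg-01 cells, an established human megakaryoblastic line, with and without propionate (C3), a fatty acid that gut microbes produce. The members were the protein-coding genes whose symbol is CDH or PCDH followed by a number, or that belong to the PCDHA, PCDHB or PCDHG clusters, which gave 88 of the 58735 genes counted. Of these, 48 reached 10 counts in at least 3 of the 6 libraries and were tested among 15078 genes, while 40 did not. RNAseq was done on 3 control libraries of untreated cells and 3 C3 libraries of cells given 500 µM sodium propionate for 48 h, as the sample labels state. No time is labelled for the control libraries, and the methods name a shorter incubation as well. The libraries of a group are called technical replicates in the study, so p-values here measure only the spread between libraries and may not cover independent cultures.

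Cadherins are calcium-dependent adhesion proteins that bind the same or related cadherins on a neighbouring cell, and the classical ones are tied to actin through catenins. Protocadherins lack the catenin-binding tail. The clustered protocadherins are best known from neurons, where each cell uses its own set of alternative promoters, and cadherins of blood progenitors are studied for contacts in the marrow niche.

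Library totals were 19318595, 18050689 and 16159449 counts in control and 16513025, 18652292 and 22821722 counts in C3. The members together took 4052, 3878 and 3131 of these counts in control and 3990, 4478 and 5620 in C3, or CPM sums of 209.7, 214.8 and 193.8 against 241.6, 240.1 and 246.3. All 3 C3 libraries were above all control libraries in this share. Normalized counts below are counts divided by the TMM-scaled library size and multiplied by the mean of that size over the 6 libraries.

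The megakaryoblast label was checked against marker genes. The most abundant megakaryocyte markers were ITGA2B, the platelet integrin subunit, at 12902 ± 390.3 normalized counts in control (SD, n = 3), FLI1 at 4751 ± 183 and NFE2 at 3201 ± 135, both transcription factors of the lineage. PF4 and GP1BB were listed at 0 in all libraries. All exon bases of GP1BB and 52.1% of those of PF4 are shared with a gene of the same strand. Such bases may go uncounted, as described below for the α and γ genes. The 0 of GP1BB is thus not read as absent RNA. Of 12 markers 10 were tested, and 0 were differentially expressed by edgeR, where an unadjusted p-value below 0.05 gave 1 higher and 2 lower. Over all tested genes the same test called 5.05% higher and 1.47% lower, and the unadjusted level gave 16.8% and 15.3%. NFE2 was at a log2 fold change of -0.38 ± 0.07 (SE), with an adjusted p-value of 1.9e-04 by edgeR's quasi-likelihood test (Benjamini-Hochberg). All its C3 libraries were below control, and it was short of the fold limit of 1.3 set below. ITGB3 went the other way, at 0.34 ± 0.11 and an adjusted p-value of 0.0325 in the same edgeR test. All C3 libraries of ITGB3 were above control. VWF, the other lower marker at the unadjusted level, was at -0.74 ± 0.28 and overlapped between groups. ITGA2B (-0.06 ± 0.07) and FLI1 (0.07 ± 0.06) overlapped between groups.

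Differentially expressed genes (DEGs) had an adjusted p-value below 0.01 in the quasi-likelihood test of edgeR, with Benjamini-Hochberg adjustment over all tested genes, and a fold change above 1.3. By this rule 6 of the 48 tested members (12.5%) were higher in C3, against 5.05% of all tested genes, and 0 were lower, against 1.47%. At an unadjusted p-value below 0.05 the same test gave 11 members higher (22.9%) and 1 lower (2.08%), against 16.8% and 15.3% of all tested genes. DESeq2 and limma-voom also called 0 lower. The C3 libraries lay all above the control libraries in 14 members (29.2%), against 17.5% of all tested genes, and all below in 2 (4.17%), against 16.9%. The median log2 fold change was 0.17 over the tested members and 0.0021 over all tested genes. The median of all genes was itself higher at low counts, as given below by range. Without control 1 these medians were 0.33 and 0.012. With any other library left out the member median ran from 0.15 to 0.20.

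These shares describe only members that passed the count filter. PCDH1 and PCDHB10 passed it only through their C3 libraries, and without both, 4 of 46 members (8.7%) were higher and the median was 0.15. With all such genes left out, 4.85% of the 14960 remaining tested genes were higher. Low counts also have a background of their own. Among genes with a mean below 20 normalized counts, 2.18% of 1651 were higher, with a median log2 fold change of 0.17, and 2 of the 15 members in that range were. These 2 are PCDH1 and PCDHB10 themselves, so nothing is read from that share. Higher genes were 3.93% of 1576 from 20 to 50 normalized counts, where 0 of 15 members were, 9.28% of 1271 from 50 to 100, where 1 of 6 was, and 7.05% of 6666 from 100 to 1000, where 3 of 12 were. In these ranges the median log2 fold change of all genes was 0.14, 0.096 and 0.0051, in that order. The member medians were 0.19, 0.31 and 0.098. Below 20 the member median was 0.34, with PCDH1 and PCDHB10 included.

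The count of 6 depended on single libraries. It was 2 of 46 tested members without control 1, 2 of 47 without control 2 and 4 of 47 without control 3. Without C3 1, C3 2 and C3 3 it was 3 of 45, 2 of 45 and 2 of 43. Over all tested genes, 636 of 14879, 592 of 14953 and 584 of 14970 were higher without control 1, 2 and 3. Without C3 1, C3 2 and C3 3 these were 766 of 14865, 668 of 14771 and 516 of 14701. The member share was thus close to that of all genes without control 1, control 2 or C3 2. CDH22 and CDH23 were called in each of these fits and in all 16 alternatives tried, whereas CDH24, PCDH1, PCDHB10 and PCDHB12 were not. DESeq2 called 2 members higher, CDH22 and CDH23, beside 564 genes in all. It was given the 83 members and 28982 genes that had any count. Its own filtering left some of these, PCDH1 among them, without an adjusted p-value. They are therefore not numbers of tested genes, and no share is read from them.

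**Figure D1:**
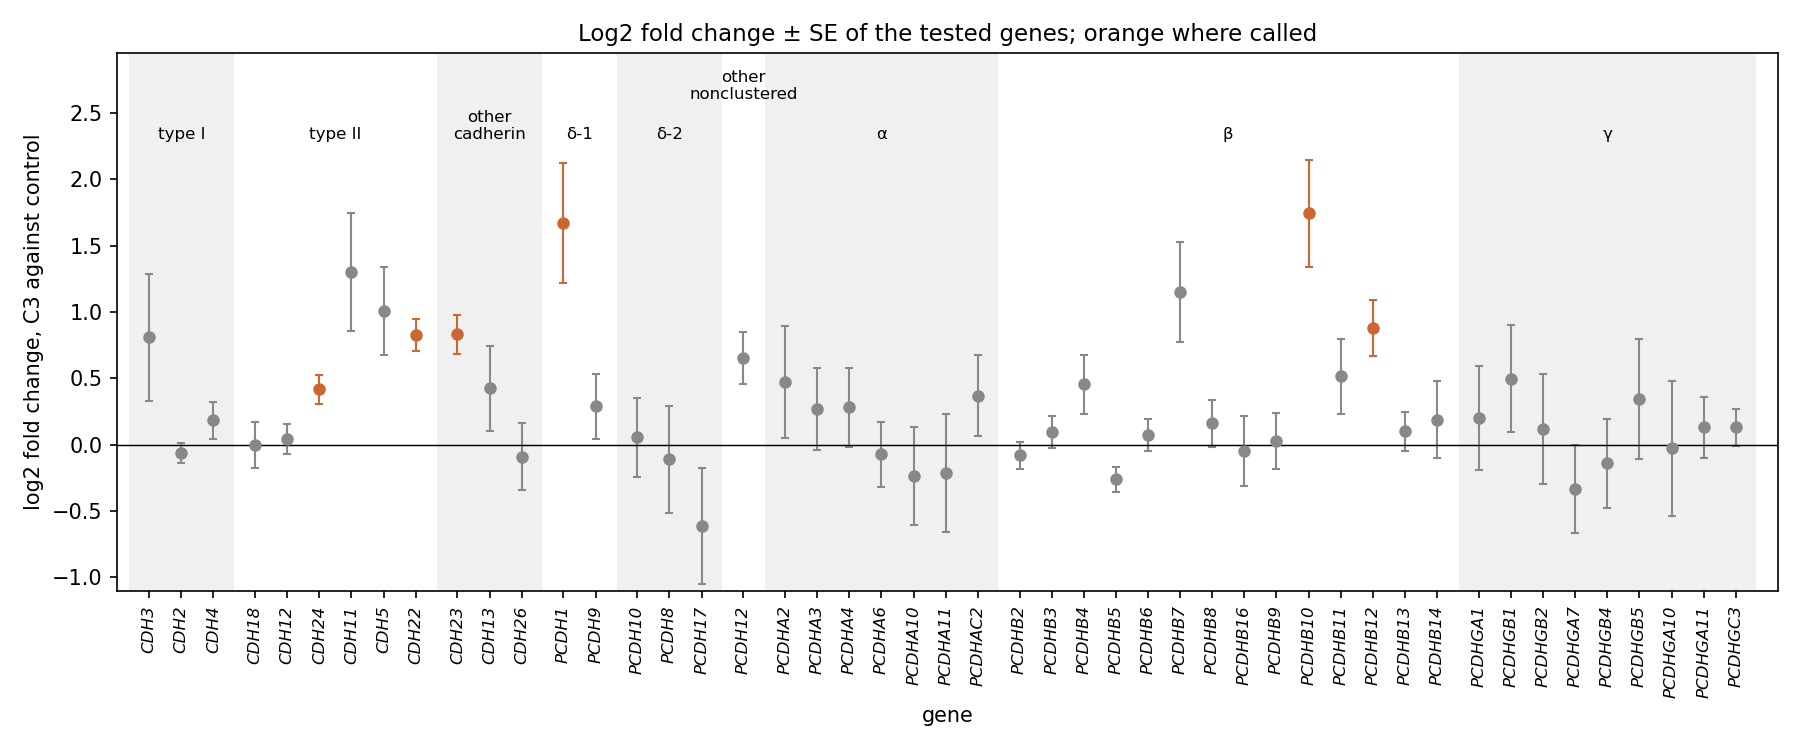
Log2 fold change of C3 against control (vertical axis) with its standard error (bars) for the 48 tested members (horizontal axis), grouped by class; orange points are the 6 called members, from 0.42 for CDH24 to 1.74 for PCDHB10. Low-count genes have the longest bars.

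CDH22, a type II classical cadherin of brain and pituitary, had 152, 161 and 137 normalized counts in control and 298, 247 and 257 in C3. The groups did not overlap, and the lowest C3 library was well above the highest control library. Its log2 fold change was 0.82 ± 0.12 (SE), with an adjusted p-value of 1.9e-05 by edgeR's quasi-likelihood test (Benjamini-Hochberg) and a range from 8.8e-10 to 3.6e-04 over the alternatives. In every leave-one-out fit its log2 fold change lay between 0.75 and 0.88. The gene (ENSG00000149654) lies on the minus strand at chr20:46173739-46308498 (GRCh38).

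CDH23, the cadherin of the tip links of inner ear hair cells, had 89.1, 90.1 and 77.6 normalized counts in control and 158, 135 and 165 in C3. Again each C3 library exceeded each control library. This gave a log2 fold change of 0.83 ± 0.15 (SE), with an adjusted p-value of 2.6e-04 by edgeR's quasi-likelihood test (Benjamini-Hochberg) and a range from 3.0e-06 to 0.00378. Of its exon bases 18.9% overlap exons on the other strand. Its counts may leave those bases out, since among protein-coding genes with all exon bases shared with the other strand 82.4% of 17 were at 0 counts, against 20.4% of 10490 genes with no shared base. The gene (ENSG00000107736) spans chr10:71396920-71815947 on the plus strand.

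CDH24, a type II cadherin that binds catenins, had 227, 239 and 203 normalized counts in control and 272, 309 and 311 in C3. The groups were separate, but the gap between control 2 and C3 1 was small. Its log2 fold change was 0.42 ± 0.11 (SE), with an adjusted p-value of 0.00665 by edgeR's quasi-likelihood test (Benjamini-Hochberg) and a range from 0.00176 to 0.0475. The call was lost without control 1 (0.0206), control 2 (0.0135), control 3 (0.0336), C3 2 (0.0255) or C3 3 (0.0475), and kept without C3 1 (0.00251). In these fits the log2 fold change of CDH24 lay between 0.36 and 0.48. The gene (ENSG00000139880) lies at chr14:23047062-23057538 on the minus strand.

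The other tested type II cadherins differed among themselves. CDH5, the cadherin of endothelial junctions, had 18.6, 22.3 and 8.4 normalized counts in control and 38.7, 30.6 and 32.2 in C3. The groups did not overlap, but control 3 stood apart below the other controls, and the log2 fold change of 1.01 ± 0.33 (SE) had an adjusted p-value of 0.0315 by edgeR's quasi-likelihood test (Benjamini-Hochberg), with a range from 0.014 to 0.135. CDH11, a cadherin of mesenchymal cells, overlapped between groups at a log2 fold change of 1.301 ± 0.45 and an adjusted p-value of 0.0403 in the same edgeR test, with a range from 0.0108 to 0.155. CDH12 was 0.04 ± 0.12 and CDH18 -0.0041 ± 0.17 on the log2 scale. Summed over the 13 type II genes, normalized counts were 706, 769 and 699 in control and 992, 930.2 and 950.4 in C3, a ratio of 1.32.

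Type I cadherins are the classical junction proteins. CDH2, N-cadherin, was the most abundant member by normalized count, with 591, 609 and 629 in control and 591, 585 and 572.5 in C3. The C3 libraries lay just below the control libraries, and control 1 and C3 1 were level after rounding. Its log2 fold change was -0.07 ± 0.08 (SE), and it turned to 0.0095 when libraries were scaled by their size alone. CDH1, E-cadherin, had 0, 0 and 0 counts in control and 0, 5 and 1 in C3, 6 in all, which is too few for a test. CDH4 had a log2 fold change of 0.18 ± 0.14 and CDH3, P-cadherin, of 0.81 ± 0.48, neither called. The 5 type I genes summed to 778 ± 28.3 (SD, n = 3) normalized counts in control and 783 ± 9.77 in C3.

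Among cadherins of other structure, CDH13, which is anchored by a lipid and has no cytoplasmic tail, was at 0.43 ± 0.32 and CDH26 at -0.09 ± 0.25 on the log2 scale.

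The nonclustered protocadherins were low. PCDH1, a δ1 protocadherin of airway epithelium, had 5.9, 6.4 and 6.0 normalized counts in control and 11.4, 27.8 and 18.8 in C3. The C3 libraries were spread widely and all above control. Its log2 fold change was 1.67 ± 0.45 (SE), with an adjusted p-value of 0.0098 by edgeR's quasi-likelihood test (Benjamini-Hochberg) and a range from 0.00538 to 0.0502. It passed the count filter only through C3 and dropped below it when any C3 library was left out. The call was lost without control 1 (0.0332), control 2 (0.0301) or control 3 (0.028). In these fits the log2 fold change of PCDH1 lay between 1.66 and 1.70. The gene (ENSG00000156453) lies at chr5:141853090-141879246 on the minus strand.

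PCDH12, a protocadherin of endothelium and trophoblast, had 66.6, 50.9 and 49.0 normalized counts in control and 110.4, 77.5 and 78.4 in C3. All C3 libraries were above control, with C3 1 the highest. The log2 fold change of 0.65 ± 0.20 (SE) had an adjusted p-value of 0.0205 by edgeR's quasi-likelihood test (Benjamini-Hochberg), with a range from 0.00536 to 0.0963, and it was called without the count filter (0.00703) and with the replicate number as a block (0.00536). PCDH9 was the most abundant δ1 gene, with 40.2, 35.0 and 31.0 normalized counts in control and 43.2, 36.4 and 50.2 in C3. Its groups overlapped, at a log2 fold change of 0.29 ± 0.24. Of the δ2 genes PCDH10 was the most abundant, with 30.4, 32.9 and 19.1 in control and 23.9, 27.8 and 33.7 in C3. These also overlapped, at 0.06 ± 0.30, and PCDH8 was at -0.11 ± 0.40 and PCDH17 at -0.61 ± 0.44.

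**Figure D2:**
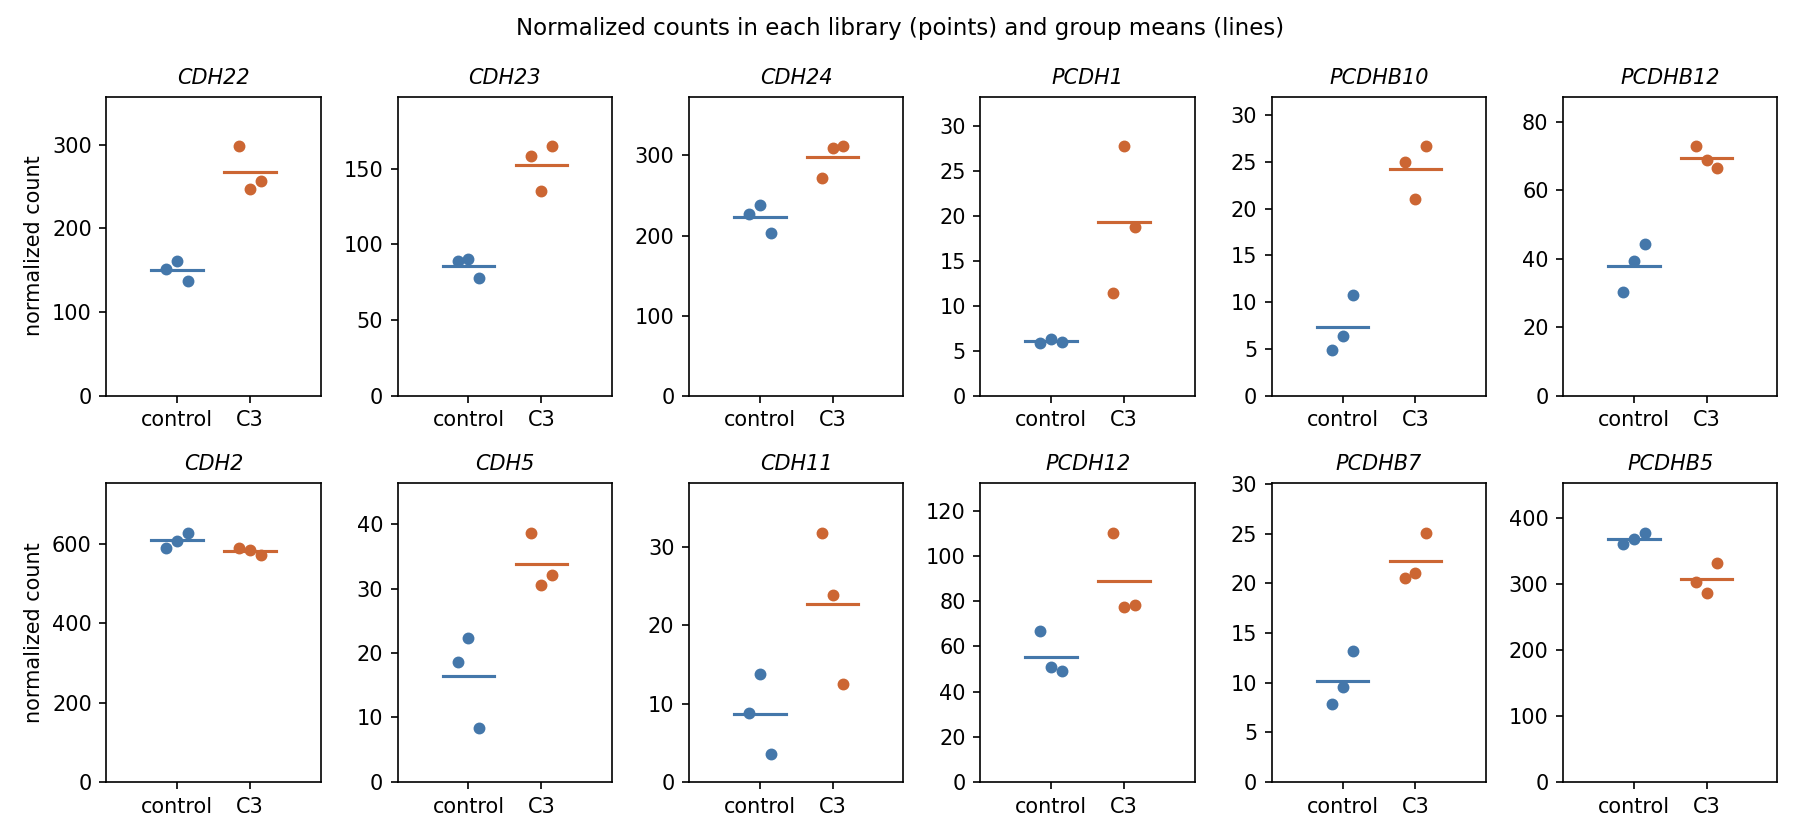
Normalized counts (vertical axes, from 0) in the 3 control (blue) and 3 C3 (orange) libraries for 12 members; lines are group means. The 6 genes of the top row are the called members, and in the bottom row the C3 libraries of PCDHB5 lie below control.

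The clustered protocadherins lie side by side on chromosome 5, and each gene has a promoter of its own. A conserved element with the core CGCT is known upstream of most of them and is bound by CTCF in neurons. RefSeq promoters (GRCh38.p14, 250 bases before to 50 after the start) were matched by symbol for 69 of the 88 members, including 14 of the 16 β genes; PCDHB6 and PCDHB11 were not among them. The 8-base word held by most β promoters was GTGGCGCT, in 13 of the 14, in 0 α and 0 γ promoters and, counting both strands, in 1.15% of all 35116 promoters. Most α promoters shared another word, ATGTCGCT (9 of 13, 0.234% of all promoters), and the γ promoters GCCGCTGT (11 of 20, 1.63%). The windows of 40 bases below are on the plus strand of chromosome 5, with the word in capitals, and are shown because they let β genes with unlike readouts be compared. The 3 with the largest log2 fold changes come before the 2 most abundant and PCDHB1.
PCDHB7: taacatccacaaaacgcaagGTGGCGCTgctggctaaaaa
PCDHB10: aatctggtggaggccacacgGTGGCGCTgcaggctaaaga
PCDHB12: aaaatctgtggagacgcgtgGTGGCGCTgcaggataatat
PCDHB2: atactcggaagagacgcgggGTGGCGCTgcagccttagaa
PCDHB5: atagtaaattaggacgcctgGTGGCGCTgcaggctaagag
PCDHB1: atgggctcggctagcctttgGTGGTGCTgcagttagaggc

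The windows lie at chr5:141172558-141172597 for PCDHB7, chr5:141192291-141192330 for PCDHB10, chr5:141208635-141208674 for PCDHB12, chr5:141094536-141094575 for PCDHB2, chr5:141135171-141135210 for PCDHB5 and chr5:141051329-141051368 for PCDHB1. The closest match in PCDHB1 differs by C5T, counting from 1 at the 5′ end of the word. PCDHB1 had 0 counts in all libraries, whereas the word was present alike in abundant and low β genes and in called and uncalled ones. PCDHB15 also held the word and had 6 counts in all. The match is a description of these letters and not of a bound site.

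Of the 16 β genes 14 were tested, and 2 were higher (14.3%), against 5.05% of all tested genes. Without PCDHB10, which passed the filter only through C3, it was 1 of 13 (7.69%). PCDHB12 had 30.4, 39.2 and 44.2 normalized counts in control and 72.8, 68.9 and 66.7 in C3. The C3 libraries were close together and all above control. This gave a log2 fold change of 0.88 ± 0.21 (SE), with an adjusted p-value of 0.00452 by edgeR's quasi-likelihood test (Benjamini-Hochberg) and a range from 0.0011 to 0.0332. The call was lost without control 1 (0.0332), control 2 (0.0148), C3 1 (0.0105), C3 2 (0.0111) or C3 3 (0.0164). With each library left out the log2 fold change of PCDHB12 lay between 0.747 and 0.996. The gene (ENSG00000120328) lies at chr5:141208697-141212571 on the plus strand.

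PCDHB10 had 4.9, 6.4 and 10.7 normalized counts in control and 25.0, 21.1 and 26.7 in C3. The C3 libraries were again all above control. Its log2 fold change was 1.74 ± 0.40 (SE), with an adjusted p-value of 0.0029 by edgeR's quasi-likelihood test (Benjamini-Hochberg) and a range from 7.3e-04 to 0.02. It passed the count filter only through C3 and dropped below it when any C3 library was left out, and the call was lost without control 1 (0.02) or control 2 (0.0154). With each control library left out the log2 fold change of PCDHB10 lay between 1.52 and 2.09. The gene (ENSG00000120324) lies at chr5:141192353-141195647 on the plus strand.

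PCDHB7 had 7.8, 9.5 and 13.1 normalized counts in control and 20.5, 21.1 and 25.1 in C3. The groups were separate, but at a log2 fold change of 1.15 ± 0.38 (SE) the adjusted p-value was 0.0308 by edgeR's quasi-likelihood test (Benjamini-Hochberg), with a range from 0.023 to 0.131. PCDHB5 went the other way, with 359.5, 368 and 377 in control and 303, 285 and 332 in C3. All its C3 libraries were below control, and its log2 fold change of -0.26 ± 0.09 (SE) had an adjusted p-value of 0.0523 in the same edgeR test, with a range from 0.0378 to 0.217. PCDHB2, the most abundant β gene, had 377, 440.1 and 351 in control and 412, 355 and 344 in C3. Its groups overlapped. Of its exon bases 43.9% overlap exons of the other strand and may be left out in the same way as in CDH23.

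In PCDHB4 and PCDHB11 all C3 libraries were also above control, with 51.9, 45.6 and 32.2 against 59.2, 66.0 and 54.9 normalized counts in PCDHB4 (0.45 ± 0.22) and 28.4, 22.3 and 20.3 against 35.3, 33.5 and 33.7 in PCDHB11 (0.52 ± 0.28), neither called. With PCDHB7, PCDHB10 and PCDHB12 this made 5 such genes of the 14 tested β genes, beside 17.5% of all tested genes. PCDHB10 among them passed the count filter only through C3. The other tested β genes, PCDHB3, PCDHB6, PCDHB8, PCDHB9, PCDHB13, PCDHB14 and PCDHB16, overlapped and had log2 fold changes from -0.05 (PCDHB16) to 0.19 (PCDHB14). The summed β counts were 1621 ± 101 (SD, n = 3) in control and 1679 ± 86.5 in C3, a ratio of 1.04. Within this sum the 4 genes most abundant in control, PCDHB2, PCDHB5, PCDHB6 and PCDHB3, took 72.2%, 74.6% and 72.4% in control and 66.9%, 68.2% and 67.1% in C3. Their share was lower in every C3 library, but their own summed normalized counts overlapped, with 1183, 1276 and 1094 in control and 1191, 1114 and 1091 in C3. The sum of the other 12 β genes, which was not tested and includes PCDHB10, was 457, 435 and 418 in control and 588, 519 and 535 in C3, without overlap, although 2 of these genes were called and others overlapped between groups. PCDHB7, PCDHB10 and PCDHB12, put together after their values were seen and so without a test, took 3.45% ± 0.957 in control and 6.91% ± 0.33 in C3.

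**Figure D3:**
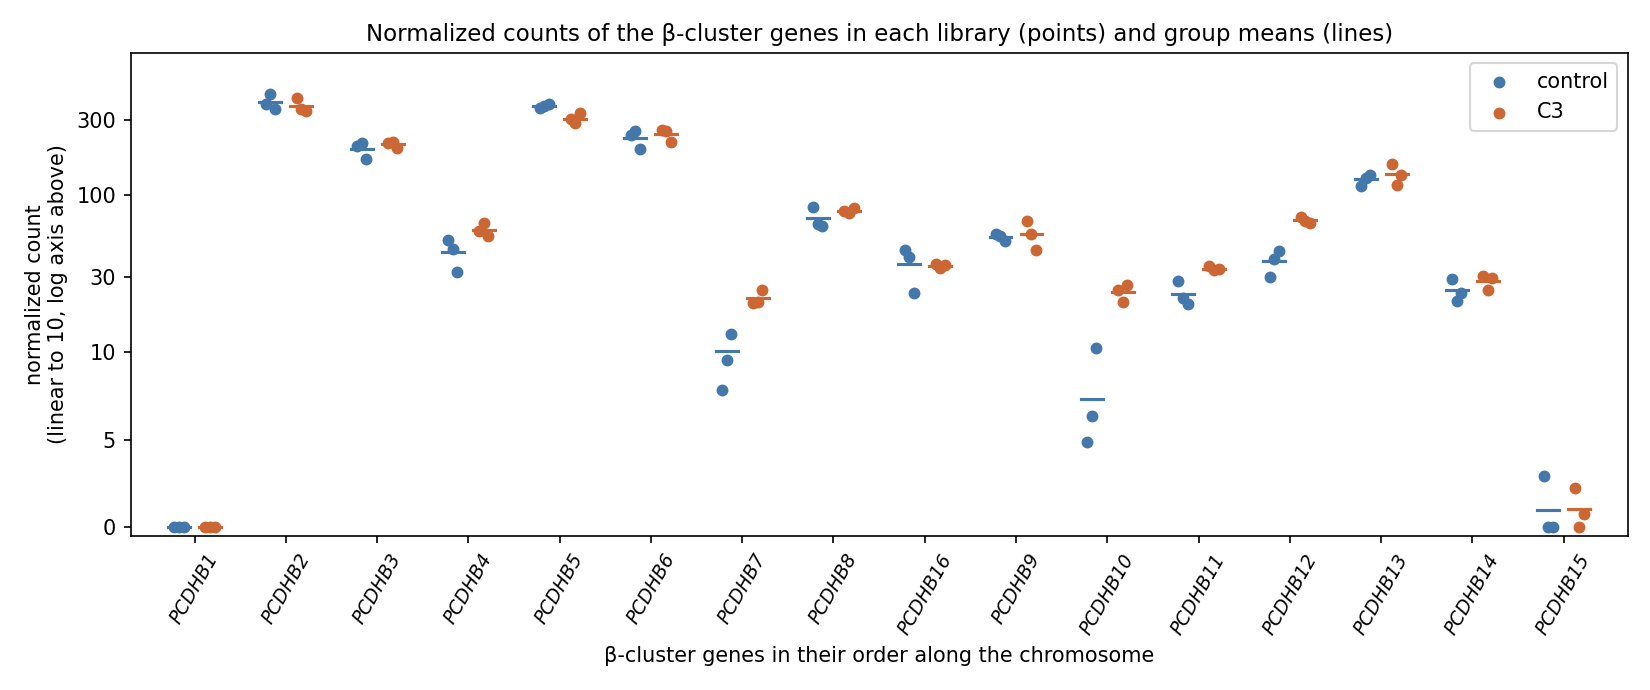
Normalized counts (vertical axis, linear to 10 and logarithmic above) of the 16 β-cluster genes in their order along the chromosome (horizontal axis), in control (blue) and C3 (orange) libraries, with lines at group means. PCDHB2 and PCDHB5 stay above 280 in every library, and PCDHB4, PCDHB7, PCDHB10, PCDHB11 and PCDHB12 have all C3 points above control.

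The α and γ genes splice a variable exon to constant exons shared within the cluster. Among protein-coding genes whose exon bases are all shared with a gene of the same strand, 81.2% of 250 were at 0 counts, against 20.4% of 10490 genes with no shared base. The α and γ counts may therefore cover mainly the variable exons and are uncertain. Of the 15 α genes 7 were tested and 0 called, with 0 at an unadjusted p-value below 0.05 by edgeR. Over all tested genes 5.05% were called higher and 1.47% lower, and 16.8% and 15.3% at the unadjusted level, so nothing is read from 0 calls among so few genes. PCDHA6 was the most abundant, with 53.9, 48.8 and 39.4 normalized counts in control and 29.6, 47.9 and 55.7 in C3. Its groups overlapped, as did those of PCDHA2, PCDHA3, PCDHA4, PCDHA10, PCDHA11 and PCDHAC2, whose log2 fold changes ran from -0.24 (PCDHA10) to 0.47 (PCDHA2).

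Of the 22 γ genes 9 were tested and 0 called, also with 0 at an unadjusted p-value below 0.05 by edgeR, beside the same shares of all tested genes. PCDHGC3, a C-type gene, had 115.6, 130.4 and 130.2 normalized counts in control and 139, 124 and 147 in C3. The groups overlapped, at a log2 fold change of 0.13 ± 0.14. PCDHGA1, PCDHGA7, PCDHGA10, PCDHGA11, PCDHGB1, PCDHGB2, PCDHGB4 and PCDHGB5 ran from -0.33 (PCDHGA7) to 0.50 (PCDHGB1). Just inside the count filter were PCDHGB5, with 13, 6, 6, 10, 14 and 12 counts in control 1 to 3 and C3 1 to 3, and PCDHGA10, with 5, 8, 10, 4, 12 and 10. Just outside were PCDHA7, with 6, 5, 6, 9, 16 and 17 counts, and CDH7, with 4, 4, 3, 10, 10 and 8.

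The untested members had few counts over the 6 libraries together. CDH16, CDH19, PCDH11X, PCDH18 and PCDHB1 had 0. CDH10, CDH17 and PCDH7 had 1 count each, PCDH20 had 2, CDH9 and PCDHGA3 had 3, PCDHGC5 had 5, PCDH15 had 7 and CDH6 had 10. PCDHA9 had 11, PCDH19 and PCDHGA12 had 12, CDH20 had 14, PCDHA13 had 16, PCDHA5 and PCDHA8 had 17, PCDHGB7 and PCDHGC4 had 19 and PCDHGA8 had 20. PCDHGA9 and PCDHGB6 had 26, PCDHA1 and PCDHAC1 had 28, CDH8 and PCDHGB3 had 33, CDH15 had 38, PCDHGA2 had 41, PCDHA12 had 43, PCDHGA5 had 44, PCDHGA4 had 45 and PCDHGA6 had 50. PCDHA7 had the most, at 59.

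Levels of the tested members were set side by side as normalized CPM per kilobase of unshared exon. On this scale PCDHB2 had the highest control level, 9.09, before PCDHB5 at 6.80, CDH2 at 3.96, PCDHB6 at 3.90, PCDHB3 at 3.56 and CDH24 at 3.20. CDH12 stood at 2.23, PCDHGC3 at 2.07 and CDH22 at 1.64, and PCDHB12 was at 0.53. The order depends on the length used, since over all exon bases PCDHB5 (5.80) came before PCDHB2 (5.10), and PCDHB6 (3.83) before CDH2 (3.81).

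The interval of chr5:140786136-141969741 from the α cluster to PCDH12 held 32 tested members, of which 3 were higher (9.38%), and 8 other tested genes, of which 1 was higher, against 5.05% of all tested genes. Without PCDH1 and PCDHB10, which passed the filter only through C3, 1 of 30 members (3.33%) was higher. The called gene outside the members was ARAP3, a GTPase-activating protein near PCDH1, at 363 normalized counts in control and 681 in C3, with a log2 fold change of 0.90 ± 0.09. The other 7 were not called. Of these DELE1 (-0.26 ± 0.07) had all C3 libraries below control and, at an adjusted p-value of 0.00706 by edgeR's quasi-likelihood test (Benjamini-Hochberg), was short of the fold limit. RELL2 (0.28 ± 0.09, adjusted p-value 0.0233 in the same edgeR test) and a long noncoding RNA (ENSG00000272070, 0.95 ± 0.45, 0.142) had all C3 libraries above control, while TAF7 (0.04 ± 0.08), DIAPH1 (-0.05 ± 0.06), HDAC3 (0.02 ± 0.06) and FCHSD1 (-0.03 ± 0.09) overlapped. The interval was chosen after its values were seen.

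The 8 lists of cadherin partners held 105 genes, of which 76 were tested. By edgeR 6 were higher (7.89%) and 0 lower, against 5.05% and 1.47% of all tested genes, an unadjusted p-value below 0.05 gave 22 (28.9%) and 10 (13.2%), against 16.8% and 15.3%, and 0 were lower also by DESeq2 and limma-voom. The median log2 fold change was 0.07. Without control 3 the count was 4 higher and 1 lower, beside 584 higher and 194 lower of all 14970 genes tested in that fit. The counts of single lists below stand against the same shares of all tested genes, 5.05% and 1.47% for calls and 16.8% and 15.3% for unadjusted p-values, and rest on few genes.

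The list of catenins and plakophilins also held AFDN and VCL, which are neither. Of its 11 tested genes 2 were higher, AFDN among them. At the unadjusted level 4 were higher, AFDN and VCL among them, and 0 lower by edgeR. JUP, plakoglobin, which links cadherins to actin and keratin, had 2084, 2011 and 1898.5 normalized counts in control and 3238, 2854 and 2940.0 in C3. The groups were far apart, at a log2 fold change of 0.59 ± 0.07 and an adjusted p-value of 4.2e-07 by edgeR's quasi-likelihood test (Benjamini-Hochberg). AFDN, afadin, which ties nectins to actin, was at 0.40 ± 0.07, and CTNNB1, β-catenin, the most abundant of the list, at -0.12 ± 0.06.

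Of 3 tested desmosomal genes 1 was higher, with 2 higher and 1 lower at the unadjusted level by edgeR. DSP, desmoplakin of the desmosomal plaque, had 125, 152 and 135 normalized counts in control and 291, 316 and 321 in C3. No library overlapped, at a log2 fold change of 1.18 ± 0.12. DSC2, desmocollin, was the most abundant and was at -0.36 ± 0.08, short of the fold limit.

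Of 12 tested genes of other cadherin superfamily branches 2 were higher, DCHS1, a ligand in planar polarity, at 0.66 ± 0.10 and CELSR2, a seven-pass cadherin, at 0.43 ± 0.08 on the log2 scale. CLSTN1 was the most abundant, at 0.12 ± 0.07, and the unadjusted level gave 4 higher and 1 lower by edgeR. Of 6 tested nectins and nectin-like genes CADM4 was higher, at 0.67 ± 0.14, and the most abundant was NECTIN2, at 0.11 ± 0.06, with 3 higher and 0 lower at the unadjusted level.

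In the other 4 lists 0 genes were called by edgeR. Transcription factors of the E-cadherin promoter had 7 tested genes, where an unadjusted p-value below 0.05 gave 1 higher and 0 lower, with ZEB2 the most abundant at 0.07 ± 0.06 on the log2 scale. At the same unadjusted level, proteases that cleave cadherins had 10 tested genes with 0 higher and 3 lower, and APH1A, of γ-secretase, at -0.18 ± 0.06. The list of CTCF and cohesin genes, which also held SMCHD1, WIZ and DNMT3B, had 14 tested, with 4 higher and 4 lower. RAD21 was at -0.08 ± 0.06. WAVE complex genes and kinases downstream of protocadherins had 13 tested, with 4 higher and 1 lower, and ABI1 at -0.06 ± 0.06.

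**Figure D4:**
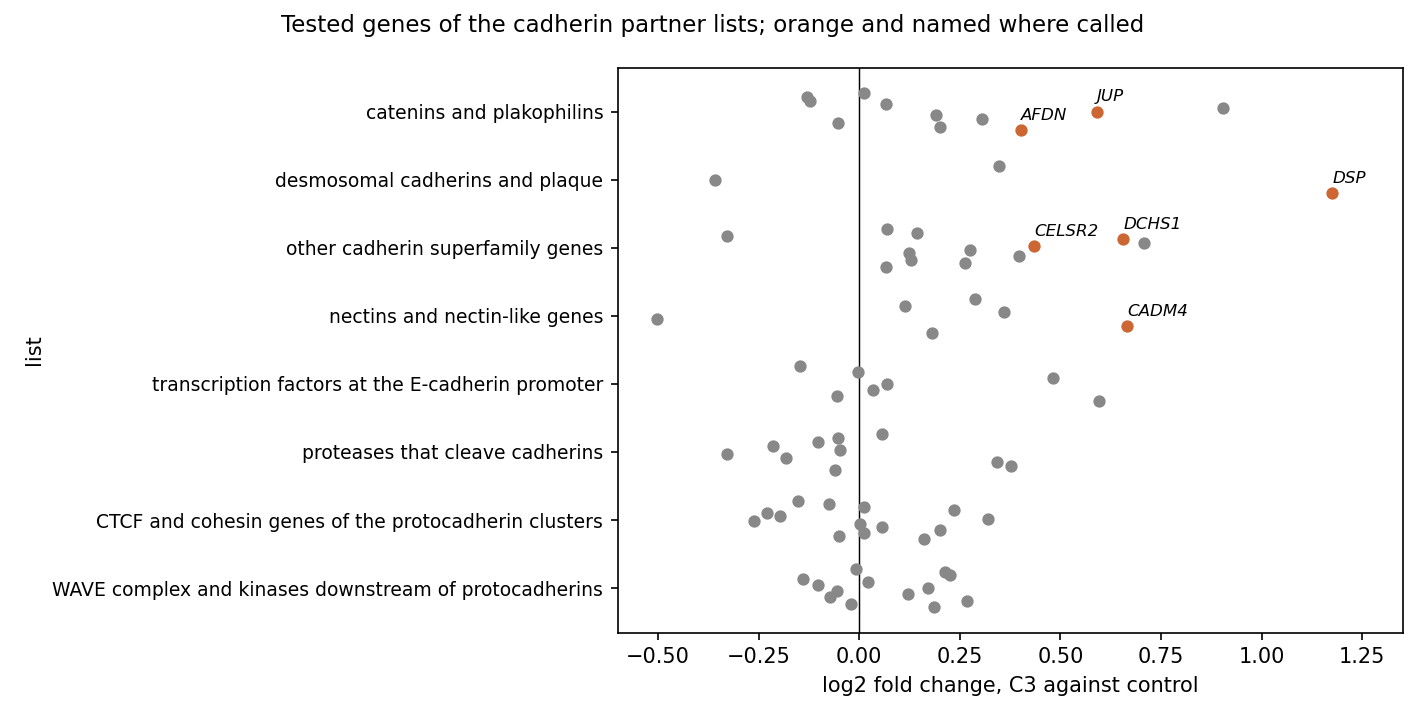
Log2 fold change of C3 against control (horizontal axis) for the tested genes of the 8 partner lists (vertical axis), 1 point per gene; orange points with names are the 6 called genes. DSP lies farthest right at 1.18, and the bottom 4 lists have no called gene.

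Markers of other cell types in which these cadherins are known were read beside them. In bulk RNA, a change in the number of cells of a type and a change in RNA per cell cannot be told apart. Over all tested genes 5.05% were called higher and 1.47% lower, and 16.8% and 15.3% were so at an unadjusted p-value below 0.05 by edgeR, which is the background for the counts of each marker list. Of 8 endothelial markers 7 were tested, and TEK was higher at a log2 fold change of 0.59 ± 0.10, while the most abundant were ESAM (0.08 ± 0.06), EGFL7 (0.13 ± 0.07) and ERG (0.31 ± 0.07). TIE1 was at 0.35 ± 0.07, PECAM1 at -0.07 ± 0.08 and ROBO4 at -0.64 ± 0.31, these being named after their values were seen. An unadjusted p-value below 0.05 gave 3 higher and 1 lower of the 7, by edgeR. Their summed normalized counts were 11692, 11766 and 11278 in control and 13752, 12276 and 12672 in C3, and CLDN5 was near 0. Their part in the values of CDH5 and PCDH12 was not tested.

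Of 10 epithelial markers 4 were tested and OCLN, occludin, was higher at 0.81 ± 0.16. KRT18 (-0.34 ± 0.07), KRT8 (-0.06 ± 0.08) and EPCAM (-0.06 ± 0.13) were the most abundant, and KRT19, ELF3 and GRHL2 were at 0. Of 8 neuronal markers 2 were tested, with RBFOX3 higher at 0.71 ± 0.18 and SNAP25 at -0.12 ± 0.37. SYT1, STMN2, TUBB3 and DCX were at 0, and MAP2 was the next most abundant. Of 8 fibroblast markers 5 were tested, with COL1A1, which passed the count filter only through its C3 libraries, higher at 1.89 ± 0.51 (5.9, 5.3 and 2.4 normalized counts in control and 13.7, 10.5 and 26.7 in C3) and LUM, the most abundant, lower at -0.66 ± 0.09, before TWIST2 at 0.88 ± 0.25 and COL3A1 at 0.32 ± 0.33. Of 8 erythroid markers 6 were tested and 0 called by edgeR, where an unadjusted p-value below 0.05 gave 1 higher and 1 lower, and KLF1 (0.14 ± 0.07) and ALAS2 (0.56 ± 0.19) were among the most abundant. HBA2 went the other way, at -0.68 ± 0.21 with all C3 libraries below control, and HBA1 (-0.12 ± 0.21) and HBB (-0.07 ± 0.39) overlapped. These 3 globin genes were named after their values were seen.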

How the data were processed

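RNA of Meg-01 cells was sequenced in 6 libraries, made with a kit that does not mark strand. The submitters' processing notes name fastp, STAR 2.6.1d, featureCounts 1.5.0-p3 and DESeq2, with the GRCh38 and hg38 builds. The deposited values are the authors' raw counts per gene, without normalization. Neither the annotation release nor whether counting used strand is given in the sources used here.

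Genes that reached 10 counts in 3 libraries were compared with edgeR 4.0.16 (R 4.3.3) using TMM factors, its quasi-likelihood test and Benjamini-Hochberg adjustment over 15078 genes. A standard error is the size of the log2 change over the root of the F statistic. An exact permutation test of 3 against 3 libraries cannot go below 0.1. Symbols and positions came from GENCODE release 44, which matched 58207 of 58735 genes, and promoter sequences from RefSeq. The methods were tested on simulated data.

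Members and lists were chosen with earlier results of these data known. Named were all members, with values per library for member DEGs, CDH1, CDH2, CDH5 and the most abundant gene of each class; the DEGs (at most 3) and most abundant gene of each partner list; and the 3 most abundant genes and DEGs (at most 3) of the megakaryocyte, epithelial, endothelial, neuronal, fibroblast and erythroid lists. The values of 1 erythroid marker are not reported here. Added after the data were seen were the values per library of CDH7, CDH11, PCDHA7, PCDHB4, PCDHB5, PCDHB7, PCDHB11, PCDHGA10, PCDHGB5, JUP, DSP and COL1A1, the plot of all β genes, and the names of the endothelial markers TIE1, PECAM1 and ROBO4, of HBA1, HBA2 and HBB and of the genes of the chromosome 5 interval that are not members. So were the names of the megakaryocyte markers ITGB3 and VWF and of the listed genes VCL, SMCHD1, WIZ and DNMT3B.

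Alternatives were DESeq2 1.42.0, limma-voom (limma 3.58.1), scaling by RLE factors or by library size alone, a mean of at least 50 counts or no filter, a block for the replicate number, leaving out each library, and an adjusted p-value of 0.05 at any fold. A mean of at least 10 counts and DESeq2 with independent filtering at its default level were chosen after seeing the data; DESeq2 otherwise filtered for 0.01.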

Additional observations from a re-analysis of the deposited data

How the results depend on the processing

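The 6 higher members became 2 with DESeq2, also 2 with DESeq2 at its default filtering level, 10 at an adjusted p-value of 0.05 and any fold, and 2 to 4 with each library left out. Higher DEGs among all tested genes went from 761 to 564 with DESeq2 and to 560 with DESeq2 at its default filtering level. They were 516 to 766 with each library left out and rose to 1658 at 0.05 and any fold. Lower DEGs went from 222 to 100 with library size alone, which moved the median of all genes from 0.0021 to 0.08, to 1323 at 0.05 and any fold, and to 129 to 340 with each library left out. Partner genes became 19 higher and 7 lower at 0.05 and any fold, and 0 to 1 lower with each library left out. Of 96 counts of genes 80 stayed within 1.5 times, counts that stayed at 0 among them. Log2 fold changes of members with an adjusted p-value numbered 703 over the alternatives. Fits where a member failed the filter or had no such value are left out, and PCDH1 and PCDHB10 each had 11 of 16. The ranges of adjusted p-values leave out the same fits. Of the 703, 640 kept their direction and side of the threshold, 23 lost the call, 6 gained it and 34 changed sign, all in uncalled genes. The causes were not tested, beyond fewer libraries or another threshold.

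Signs turned with library size alone for CDH2 (0.0095), CDH18 (0.069), PCDHA6 (0.0043), PCDHB16 (0.026) and PCDHGA10 (0.049), for CDH18 without a count filter (0.0056) and with a mean of at least 50 counts (0.0093), and for PCDHB9 with limma-voom (-0.0096). With each library left out the ranges were CDH18 -0.13 to 0.15, CDH12 -0.0038 to 0.15, CDH26 -0.19 to 0.052, PCDH10 -0.13 to 0.20, PCDHA2 -0.34 to 0.79, PCDHA6 -0.28 to 0.13, PCDHA10 -0.52 to 0.29, PCDHB2 -0.16 to 0.018, PCDHB6 -0.027 to 0.16, PCDHB16 -0.26 to 0.15, PCDHB9 -0.12 to 0.19, PCDHB13 -0.0081 to 0.20, PCDHGA1 -0.024 to 0.44, PCDHGB2 -0.15 to 0.50, PCDHGB4 -0.29 to 0.083, PCDHGA10 -0.30 to 0.21, PCDHGA11 -0.078 to 0.28.

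The replicate numbers did not pair the libraries (correlations of deviations 0.021, -0.047 and 0.03). With the replicate number as a block, 7 members were higher, PCDH12 being the added one, and CDH18 turned to 0.0085.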
